A study of Homo sapiens with 4 samples.

Results

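The genes described here encode the machinery that starts and carries out DNA replication. They form a list of 51 genes named for their roles and chosen with earlier results of these data known. The list holds 15 genes of origin licensing, 9 of origin firing and 27 of the replication fork. Of these genes, 50 are among the 8721 that could be tested. Each was read through the probe set with the highest mean signal among those annotated to that symbol alone. HCT116 is an established human colon carcinoma line, and it was grown either as multicellular spheroids (MCS), untreated three-dimensional aggregates, or as untreated monolayers. There were 2 spheroid and 2 monolayer cultures, which the study describes as independent, each on its own oligonucleotide array. The study characterized these spheroids as a model of quiescent tumour cells. A spheroid holds a dividing rim and a quiescent core, and no separation of them is described for the RNA, so each value is taken as an average over both.

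Replication starts at origins. In G1 the origin recognition complex (ORC), with CDC6 and CDT1, loads the MCM helicase in an inactive form, which is licensing, and geminin (GMNN) blocks CDT1 once S phase has begun. In S phase the kinase CDC7 with its activator DBF4 drives CDC45 and the GINS complex onto the helicase, which is firing. At the fork, polymerase alpha-primase lays primers, the clamp PCNA is loaded by replication factor C (RFC), polymerases epsilon and delta copy the strands, and RPA coats single-stranded DNA. Many of these genes are transcribed in G1 and S phase under E2F factors, and quiescent cells lose several of the licensing proteins.

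Of the 51 promoters, 43 were found in the RefSeq table (GRCh38.p14), which gave 56 windows running from 250 bases before to 50 bases after a transcription start. The genes without a window were MCM4, MCM5, GINS4, RECQL4, RPA2, RPA3, POLD3 and DNA2. The E2F consensus was searched on both strands as TTTCCCGC, TTTCGCGC, TTTGCCGC or TTTGGCGC, whose matches may overlap. It was present in 22 of 56 windows (39.3%), against 5.26% of the windows of all genes tested and 3.31% of all windows in the table. The cell cycle element CHR, searched as TTTGAA on both strands, was present in 2 of 56 windows (3.57%), against 10.6% of the windows of genes tested. The stretches below come from 9 genes of the licensing, firing and fork groups. They are read 5′ to 3′ on the strand of the gene and lie before the start. The E2F match is in capitals, or its reverse complement where the match is on the other strand. In MCM6 and TIPIN a second match overlaps the one in capitals.
GMNN, chr6:24775322-24775351, + strand: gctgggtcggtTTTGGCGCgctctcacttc
CDT1, chr16:88803743-88803772, + strand: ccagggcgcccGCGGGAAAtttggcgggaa
MCM6, chr2:135876515-135876544, - strand: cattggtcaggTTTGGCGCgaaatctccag
CDC7, chr1:91501067-91501096, + strand: tccgacctgcgGCGGGAAAgtcgcgcgcct
GINS2, chr16:85688967-85688996, - strand: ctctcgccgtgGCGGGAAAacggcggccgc
PCNA, chr20:5126663-5126692, - strand: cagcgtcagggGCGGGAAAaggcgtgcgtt
RFC3, chr13:33818083-33818112, + strand: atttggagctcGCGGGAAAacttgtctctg
POLA1, chrX:24693770-24693799, + strand: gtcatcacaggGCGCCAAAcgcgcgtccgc
TIPIN, chr15:66356733-66356762, - strand: ccccgcacggaTTTGGCGCcaaacgctgcg

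Replication genes were lower in spheroids across all 3 stages. Values are MAS5 signals, linear intensities that the authors scaled to the same trimmed mean on each array (500.1), and all differences are spheroid minus monolayer on the scale log2(signal + 32) with their standard errors, n = 2 per group. A gene is called lower or higher when limma gave an adjusted p under 0.05 over all genes tested. Of 51 genes, 50 had a mean signal over the 4 arrays above 300 units and were tested. Of these 50, 44 were lower, 0 higher and 6 not called, whereas 20.6% of all genes tested were called lower and 19.0% higher. The median difference was -0.97, against -0.03 for all genes. Both spheroid arrays lay below both monolayer arrays for 48 of the 50, against 36.6% of all genes. A difference of -1 or below was found for 22 of the 50 (44%), against 338 of all genes (3.88%). The tested genes had passed the signal filter in both culture types, since the lowest mean in spheroids was 368.5 units, for DNA2.

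**Figure D1:**
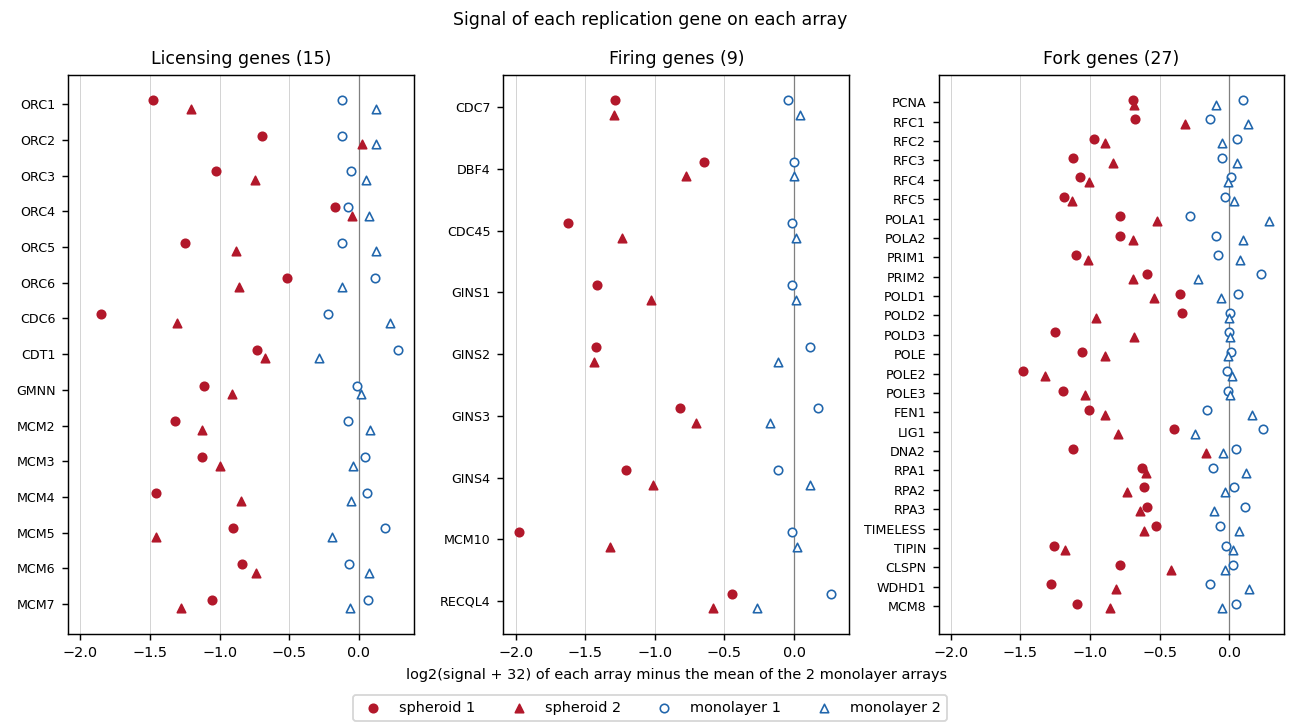
Signal of each of the 51 genes on each array, as log2(signal + 32) minus the mean of the 2 monolayer arrays of that gene (x), for licensing, firing and fork genes (panels; genes on the y axis). Red symbols are the 2 spheroid arrays and open blue symbols the 2 monolayer arrays; among the 50 tested genes the red symbols lay left of the blue ones for 48, and ORC2 and ORC4 overlapped.

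Genes of each stage were lower. The median was -1.06 for licensing (13 of 15 lower), -1.22 for firing (8 of 9 lower) and -0.84 for fork genes (23 of 26 tested lower). Of all genes tested, 20.6% were called lower. The ranges overlapped widely, at -1.58 to -0.11 for licensing, -1.65 to -0.51 for firing and -1.40 to -0.45 for the fork, and the difference between stages was not tested. Tested genes with and without an E2F match in a promoter window had medians of -0.98 (20 of 21 tested lower) and -0.93 (18 of 21 lower). The gene with the largest difference, MCM10 (-1.65), had no match in its windows, whereas CDC6, with the next largest (-1.58), had a match. No match means only that none of the exact sequences searched lay within the windows. The difference between these medians was not tested.

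The arrays are scaled to their totals, so these differences are relative to the other transcripts of each culture. The Bacillus spike-in controls were 1.82-fold brighter on spheroid arrays, at 1.64 and 1.11 times the mean of the 4 arrays, against 0.699 and 0.786 times on monolayer arrays. With scaling to these controls the median of all genes moved to -0.87, and 3996 of all 8721 genes were called lower. All 50 tested replication genes were lower under that scaling (median -1.79). The sources do not say at which step these controls were added, so what a spike-in-scaled value is relative to is unknown. The bacterial and phage hybridization controls differed 1.09-fold. The 3' to 5' signal ratio of ACTB was 2.82 and 3.003 in spheroids and 2.64 and 2.34 in monolayers. That of GAPDH went the other way, at 0.931 and 0.921 in spheroids and 1.07 and 1.02 in monolayers. The part of these ratios in the results was not tested. Of 9 epithelial markers, EPCAM, CDH1, KRT8, KRT18 and KRT19 were above 300 units, with CDH1 (1.73 ± 0.19) and KRT19 (0.79 ± 0.12) called higher in spheroids and KRT8 (-0.49 ± 0.19), KRT18 (-0.11 ± 0.13) and EPCAM (0.016 ± 0.11) not called, and CDX1, CDX2, VIL1 and LGALS4 were below the filter. Of 7 markers of other cell types, 2 passed the filter and both were higher in spheroids. COL1A1 had 2222 and 2659 in spheroids against 869 and 658 in monolayers. ACTA2 had 552 and 452 in spheroids against 239 and 202 in monolayers, and passed the filter only through its spheroid arrays. Only 1 of 5 COL1A1 probe sets and 1 of 3 ACTA2 probe sets had a mean above 300 units. With spike-in scaling these 4 calls were lost, at 0.88 for CDH1, 0.80 for COL1A1 and 0.29 for ACTA2, and KRT19 turned to -0.069. The other 5 of these 7 markers had signals of 2.02 to 199, with PTPRC, VWF and PDGFRB below 39 on every array. The part of these cell markers in the results was not tested. In bulk RNA, fewer cells in S phase and less of a transcript per cell cannot be told apart. The proliferation marker MKI67 stood at 2706 and 2760 in spheroids and 6051 and 7251 in monolayers, and CDKN1B, which encodes the inhibitor p27, at 4609 and 5842 in spheroids and 3118 and 2544 in monolayers (0.87 ± 0.17, or 0.019 with spike-in scaling).

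Of the 6 origin recognition genes, 4 were lower (66.7%, against 20.6% of all genes) and 2 not called. ORC1, the subunit whose protein is degraded in S phase in human cells, had signals of 477 and 583 in spheroids, against 1274 and 1512 in monolayers. Both spheroid values were under the lower monolayer value, and the difference was -1.34 ± 0.21 (limma, adjusted p = 3.22e-04). ORC5, an ATP-binding subunit, had signals of 1418 and 1834 in spheroids, against 3130 and 3704 in monolayers (-1.06 ± 0.18). ORC3 and ORC6 were lower by -0.89 ± 0.16 and -0.69 ± 0.17, although ORC6 was not called without spheroid replicate 2 (-0.52). ORC4, another ATP-binding subunit, had signals of 3451 and 3763 in spheroids and 3690 and 4097 in monolayers. These ranges overlapped, and its difference of -0.11 ± 0.15 (adjusted p = 0.585) had a 95% confidence interval of -0.42 to 0.21. ORC2, a core subunit, had signals of 850 and 1422 in spheroids and 1282 and 1525 in monolayers (-0.34 ± 0.23, adjusted p = 0.274). Its spheroid arrays were far apart: it was called lower without spheroid replicate 2 (-0.70), and its sign turned without spheroid replicate 1 (0.023). The intervals of ORC4 and ORC1 (-1.79 to -0.90) did not overlap.

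The loading factor CDC6 had the largest difference among licensing genes. CDC6, the ATPase that recruits the helicase to ORC, had signals of 758 and 1122 in spheroids, against 2415 and 3299 in monolayers. The spheroid mean was 0.329 of the monolayer mean, a difference of -1.58 ± 0.22 (limma, adjusted p = 1.60e-04), and a further probe set for CDC6 gave -1.55 ± 0.17. GMNN, the inhibitor of CDT1, had signals of 5011 and 5780 in spheroids, against 10772 and 10987 in monolayers (-1.01 ± 0.13). So the transcript of the inhibitor was lower as well as those of the loaders. CDT1, which brings the helicase to the origin, had signals of 3853 and 4024 in spheroids, against 7826 and 5278 in monolayers (-0.70 ± 0.18, adjusted p = 0.00720). The monolayer arrays disagreed for CDT1, whose call was lost without monolayer replicate 1 (-0.42), whereas its other probe set differed by -1.01 ± 0.20.

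All 6 subunits of the MCM2-7 helicase were lower, against 20.6% of all genes. MCM2 had signals of 3779 and 4334 in spheroids, against 8995 and 10037 in monolayers (-1.22 ± 0.14, adjusted p = 4.08e-05). MCM5 had signals of 2406 and 1630 in spheroids, against 5184 and 3969 in monolayers (-1.18 ± 0.20). MCM7, MCM4 and MCM3 differed by -1.17 ± 0.14, -1.15 ± 0.19 and -1.06 ± 0.14. MCM6 had the smallest difference of the 6, -0.79 ± 0.12, with signals of 9954 and 10699 in spheroids against 16998 and 18743 in monolayers. The 95% interval of MCM6 (-1.04 to -0.53) overlapped that of MCM2 (-1.52 to -0.93). Each of the 6 calls held when any 1 array was left out.

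Firing factors held the largest difference of the whole group. MCM10, a scaffold needed to activate the loaded helicase, had signals of 862 and 1375 in spheroids, against 3439 and 3528 in monolayers, a spheroid mean of 0.321 of the monolayer mean (-1.65 ± 0.21, limma adjusted p = 8.37e-05). Its 3 probe sets ran from -1.65 to -1.26. CDC45, which completes the active helicase together with GINS, had signals of 490 and 652 in spheroids, against 1561 and 1593 in monolayers (-1.43 ± 0.20). For both genes the monolayer arrays were close together and the spheroid arrays less so.

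The GINS subunits were all lower, GINS2 by -1.43 ± 0.14, GINS1 by -1.22 ± 0.16, GINS4 by -1.11 ± 0.21 and GINS3 by -0.76 ± 0.21. GINS3 was the least stable of the 4, since its call was lost without spheroid replicate 1 (-0.71) or monolayer replicate 1 (-0.59). The kinase CDC7 differed by -1.29 ± 0.18 and its activator DBF4 by -0.71 ± 0.14, with intervals of -1.67 to -0.91 and -1.01 to -0.41 that overlapped. RECQL4, a helicase of the RecQ family with a role in firing, had signals of 928 and 841 in spheroids and 1537 and 1056 in monolayers. Although both spheroid arrays were below both monolayer arrays, it was not called (-0.51 ± 0.21, adjusted p = 0.0734). It passed without monolayer replicate 2 (-0.78). Its other probe set was called lower (-0.86 ± 0.20).

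**Figure D2:**
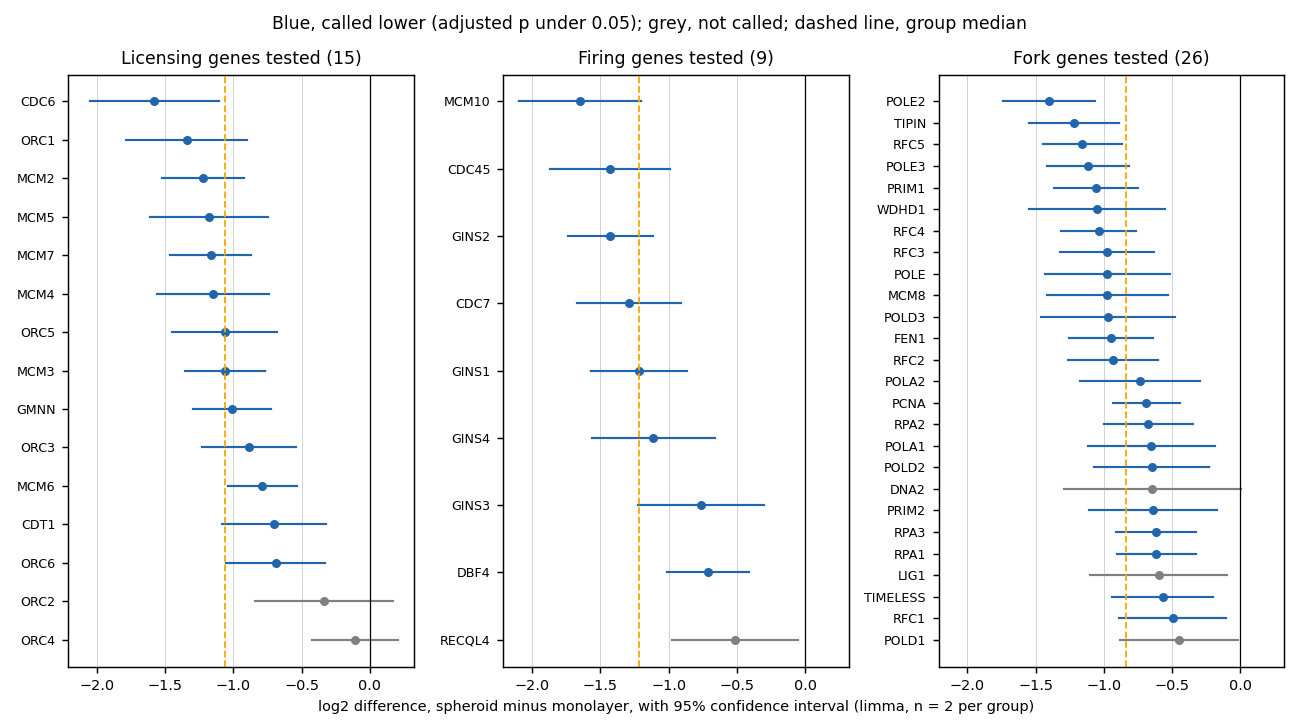
Log2 difference, spheroid minus monolayer (x), of each of the 50 tested genes with its 95% confidence interval from limma, n = 2 per group, sorted within licensing, firing and fork genes (panels). Blue genes were called lower and grey ones not called; medians (dashed) were -1.06, -1.22 and -0.84, and the 6 grey genes were ORC2, ORC4, RECQL4, POLD1, LIG1 and DNA2.

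At the fork, the clamp and all 5 subunits of its loader were lower, against 20.6% of all genes. PCNA, the sliding clamp, had signals of 14383 and 14441 in spheroids, against 24854 and 21781 in monolayers (-0.69 ± 0.11). RFC5 had signals of 3338 and 3478 in spheroids, against 7475 and 7803 in monolayers (-1.16 ± 0.13, adjusted p = 4.86e-05). RFC4 had signals of 4775 and 4988 in spheroids, against 10130 and 9999 in monolayers (-1.04 ± 0.13). In each of these genes the gap between culture types exceeded the gap between arrays of one type; the array values of PCNA were added after they were seen. RFC3 and RFC2 differed by -0.98 ± 0.16 and -0.93 ± 0.15. RFC1, the large subunit, had the smallest difference, with signals of 1560 and 2005 in spheroids, against 2280 and 2760 in monolayers (-0.50 ± 0.18, adjusted p = 0.045). RFC1 was not called when spheroid replicate 1 was left out (-0.32), nor without monolayer replicate 2 (-0.36). A further RFC5 probe set went against the others, with 1842 and 1489 in spheroids and 1767 and 1277 in monolayers (0.14 ± 0.21, not called).

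Of 10 genes of the replicative polymerases and primase, 9 were lower (90%, against 20.6% of all genes) and 1 not called. POLE2, a small subunit of the leading strand polymerase epsilon, had signals of 1403 and 1571 in spheroids, against 3929 and 4021 in monolayers (-1.40 ± 0.16, adjusted p = 3.81e-05). POLE3, a histone-fold subunit of the same enzyme, had signals of 2973 and 3321 in spheroids, against 6814 and 6882 in monolayers (-1.12 ± 0.14). The catalytic subunit POLE differed by -0.98 ± 0.21. In polymerase delta, which copies the lagging strand, POLD3 and POLD2 differed by -0.97 ± 0.23 and -0.65 ± 0.19, while the catalytic POLD1 had signals of 756 and 662 in spheroids and 1021 and 938 in monolayers. POLD1 was not called (-0.45 ± 0.20, adjusted p = 0.0908), although its arrays did not overlap, and the interval of -0.88 to -0.02 overlapped that of POLE (-1.43 to -0.52). The call of POLD2 was lost without spheroid replicate 2 (-0.34). The primase subunit PRIM1 differed by -1.06 ± 0.14. The other 3 genes of polymerase alpha-primase were nearer the threshold: POLA2 (-0.74 ± 0.20) was not called without monolayer replicate 2 (-0.64), POLA1 (-0.65 ± 0.22) not without spheroid replicate 1 (-0.52) or monolayer replicate 2 (-0.37), and PRIM2 (-0.64 ± 0.22) not without monolayer replicate 1 (-0.41), spheroid replicate 1 (-0.69) or spheroid replicate 2 (-0.59).

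Of the 3 genes that finish the lagging strand, 1 was lower (33.3%, against 20.6% of all genes) and 2 were not called. FEN1, the flap nuclease, had signals of 4805 and 5206 in spheroids, against 8646 and 10827 in monolayers (-0.95 ± 0.14, adjusted p = 3.00e-04). LIG1, the ligase that joins Okazaki fragments, had signals of 781 and 581 in spheroids and 1234 and 871 in monolayers (-0.60 ± 0.23, adjusted p = 0.0566). DNA2, a nuclease that trims long flaps, had signals of 241 and 496 in spheroids and 582 and 543 in monolayers (-0.65 ± 0.30, adjusted p = 0.105). LIG1 and DNA2 were below the monolayer arrays on both spheroid arrays but were not called. LIG1 passed without spheroid replicate 1 (-0.80) or monolayer replicate 2 (-0.84), and DNA2 without spheroid replicate 2 (-1.12).

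The 3 subunits of RPA moved by nearly the same amount. RPA2 had signals of 2396 and 2192 in spheroids, against 3757 and 3593 in monolayers (-0.67 ± 0.15, adjusted p = 0.00376). RPA3 had signals of 5430 and 5251 in spheroids, against 8854 and 7606 in monolayers (-0.62 ± 0.13). RPA1 had signals of 5440 and 5547 in spheroids, against 7775 and 9150 in monolayers (-0.62 ± 0.13). Each subunit was called, and the differences lay within one standard error of each other.

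Genes that hold the helicase and polymerases together at the fork were also lower. TIPIN, the partner of TIMELESS, had signals of 1565 and 1651 in spheroids, against 3714 and 3857 in monolayers (-1.22 ± 0.15, adjusted p = 8.50e-05). WDHD1 (AND-1), which links polymerase alpha to the helicase, had signals of 403 and 568 in spheroids, against 925 and 1132 in monolayers (-1.05 ± 0.23). TIMELESS itself had signals of 1327 and 1249 in spheroids, against 1836 and 2020 in monolayers (-0.57 ± 0.17, adjusted p = 0.0186). The intervals of these partners, -1.55 to -0.89 for TIPIN and -0.94 to -0.20 for TIMELESS, overlapped slightly, and the call of TIMELESS was lost without spheroid replicate 2 (-0.53) or monolayer replicate 2 (-0.50). MCM8, a relative of MCM2-7 that acts in recombination, differed by -0.97 ± 0.20. CLSPN, the checkpoint mediator claspin, was below the signal filter and was not tested: its brightest probe set had 117 and 159 in spheroids and 229 and 219 in monolayers, and the arrays did not overlap.

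Several probe sets per gene gave a second look at the same RNA. The 51 genes had 93 probe sets with 1 symbol, of which 72 passed the filter; 62 of the 72 were lower and 10 not called, whereas 17.2% of all probe sets that passed were called lower. Of 18 genes with at least 2 passing probe sets, 13 were lower in each, and 17 had differences below 0 in each, RFC5 being the exception. The probe sets of MCM4, MCM10, RECQL4 and CDT1 differed among themselves by 0.31 to 0.39, and those of CDC6, FEN1 and RPA1 by 0.02 to 0.03. Probe sets of one gene share the same 4 RNA samples and are no replicates. In the fit over probe sets, RFC1 was lower by 1 of its 2 (-0.67 ± 0.17). The RFC1 probe set that stands for the gene was not called in that fit (-0.50 ± 0.19).

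**Figure D3:**
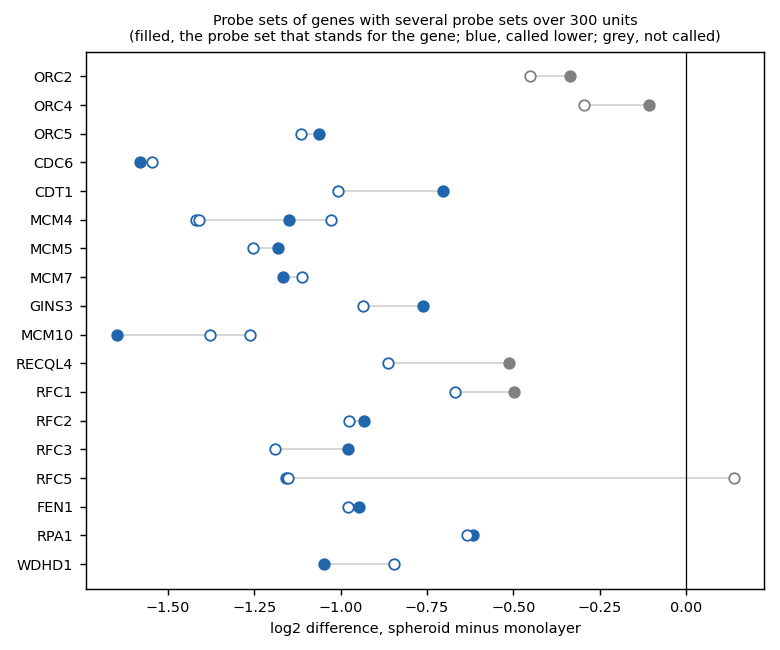
Log2 difference, spheroid minus monolayer (x), of every passing probe set of the 18 genes with at least 2 (y). Filled circles are the probe set that stands for the gene, blue marks probe sets called lower and grey those not called in the fit over 14162 probe sets; the single value above 0 is the third RFC5 probe set (0.14).

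Other genes of the pathway, outside the list, were mostly lower too. Of 37 further replication factors with a probe set, 32 were tested, and 22 were lower, 1 higher and 9 not called (median -0.81). The share called lower was 68.75%, against 20.6% of all genes. SKP2, the ubiquitin ligase subunit that targets p27 and CDT1, had signals of 1309 and 1285 in spheroids, against 4100 and 3509 in monolayers (-1.53 ± 0.16, adjusted p = 2.53e-05). LRR1, which acts in unloading the helicase, and CHAF1B, a subunit of the chromatin assembly factor, differed by -1.47 ± 0.17 and -1.41 ± 0.21. The higher gene was POLD4, the smallest subunit of polymerase delta, with 487 and 427 in spheroids and 76.3 and 215 in monolayers (1.58 ± 0.36, adjusted p = 0.00445). POLD4 passed the signal filter only through its spheroid arrays, and with spike-in scaling its difference was 0.83 and not called.

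Of further genes around replication, most of those of nucleotide supply were lower, whereas calls among DNA polymerases with other tasks were no more frequent than among all genes. Of 10 tested genes of nucleotide supply, 7 were lower (70%, against 20.6% of all genes) and 0 higher (median -0.82). DTYMK, RRM2, RRM1 and DCK, which make or salvage deoxynucleotides, differed by -1.28 ± 0.17, -1.08 ± 0.12, -1.06 ± 0.13 and -0.92 ± 0.15. RRM2B, the p53-inducible alternative to RRM2, had 1376 and 1661 in spheroids and 1567 and 907 in monolayers (0.33 ± 0.24, not called), and was chosen after its value was seen; it was called higher without monolayer replicate 1 (0.72) and was at -0.050 without monolayer replicate 2. Of 14 tested repair, translesion and mitochondrial polymerases and damage tolerance genes, 2 were lower (14.3%, against 20.6% of all genes), 1 higher and 11 not called (median -0.16). The lower ones were RAD18 (-1.10 ± 0.21), a ubiquitin ligase acting on PCNA, and POLQ (-0.72 ± 0.22), which lost its call without spheroid replicate 1 (-0.58) or monolayer replicate 2 (-0.65). The translesion polymerase POLI was higher, with 1207 and 1373 in spheroids and 766 and 811 in monolayers (0.69 ± 0.19, adjusted p = 0.0123), but did not pass when spheroid replicate 2 (0.60) or monolayer replicate 1 (0.65) was left out, and had the opposite sign under spike-in scaling (-0.15). Of 9 tested checkpoint genes, 3 were lower (33.3%, against 20.6% of all genes) and 0 higher (median -0.27). Those 3 were CDC25A (-1.71 ± 0.27), RAD1 (-0.84 ± 0.20) and CHEK1 (-0.82 ± 0.16), and RAD1 was not called without _x_at and _s_at probe sets (-0.13). CDC25A, with 258 and 321 in spheroids and 764 and 1339 in monolayers, passed the filter only through its monolayer arrays. The differences between these lists were not tested.

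**Figure D4:**
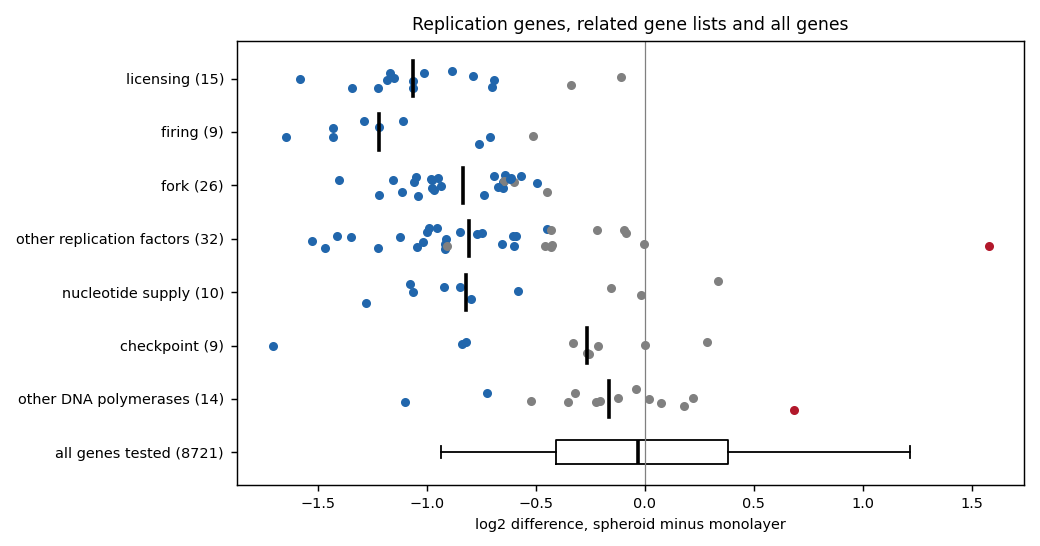
Log2 difference, spheroid minus monolayer (x), of each tested gene of the 3 replication groups and 4 related lists (y, number tested in brackets), blue where called lower, red where called higher and grey where not called, with black bars at the medians. The box at the bottom holds the middle of all 8721 genes, with whiskers at the 5th and 95th percentiles (-0.93 and 1.22); medians ran from -1.22 for firing to -0.16 for other DNA polymerases.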

How the data were processed

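Biotin-labelled cRNA from 2 spheroid and 2 monolayer cultures was hybridized to 1-colour Affymetrix Genome U133 Plus 2.0 arrays. The authors normalized the arrays with MAS5 (version not given in the sources used here), and what they deposited is a linear intensity for each probe set. No genome build is named for them. Probe sets were named through the platform annotation supplied (41091 with 1 symbol, 1801 with several, 11721 unlisted), and 0 symbols changed against RefSeq.

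Values were taken as log2(signal + 32), which understates changes of dim genes. Probe sets of 1 symbol with a mean above 300 units were kept, after the study's methods, whose further condition of a present call was not used here, and each gene was represented by its brightest probe set. Spheroid and monolayer arrays were compared across all genes with limma (version 3.58.1, R 4.3.3; lmFit and eBayes with an intensity trend, two-sided, Benjamini-Hochberg over 8721 genes, residual degrees of freedom 2, prior degrees of freedom 10.5). The fit was also run on simulated arrays with independent noise and known changes, a setting simpler than these data. No conclusion on the calls is drawn from that run. The median standard error was 0.19. The number of arrays limits the precision. Correlations across genes were 0.979 between spheroid arrays, 0.984 between monolayer arrays and, between culture types, 0.889 to 0.902.

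Members and lists were chosen with earlier results of these data known. All members are named. Array values are given for the 2 largest and the smallest difference in each role and for members not called or below the filter; PCNA was added. From each related list, up to 4 called genes by size and every higher gene are named. Alternatives were other filters, constants, scalings, probe set rules, moderation and thresholds, a replicate block, leaving out arrays one at a time and the methods' t-test, a test that the study gives for assays other than the arrays.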

Additional observations from a re-analysis of the deposited data

How the results depend on the processing

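Of the 44 replication genes called lower, 35 were lower in each of 14 limma settings where they could be fitted, and 9 lost the call without at least 1 array, namely CDT1, GINS3, ORC6, POLA1, POLA2, POLD2, PRIM2, RFC1 and TIMELESS. Leaving out each array in turn gave 41 to 42 lower genes of the 50, with medians of -1.06 to -0.86, and 1 to 3 lower other DNA polymerases. Leaving out arrays moved ORC2 between -0.70 and 0.023, above 0 without spheroid replicate 1, and RRM2B between -0.050 and 0.72, below 0 without monolayer replicate 2. The median of the replication genes was -1.0003 with a constant of 1, -0.90 with a constant of 100, -0.91 with quantile normalization, -0.96 with probe sets averaged, -1.79 with spike-in scaling and -0.98 when _x_at and _s_at probe sets were left out. Spike-in scaling gave 3996 lower and 183 higher genes in all, 7 lower checkpoint genes and 8 lower other DNA polymerases, and turned POLI to -0.15, RRM2B to -0.51 and KRT19 to -0.069. Without _x_at and _s_at probe sets fewer genes could be tested (6094), with 1114 lower in all, 28 of 34 replication genes, 7 of 9 for licensing, 5 of 6 for firing and 13 of 21 other replication factors. An adjusted p under 0.01 left 1123 lower and 1050 higher genes, 37 lower replication genes and 1 lower other DNA polymerase, as did no filter for the last (1). The methods' t-test with the Benjamini-Hochberg adjustment called 1 lower and 1 higher gene in all. It called 0 in the replication groups and related lists, where limma called 44 of 50 replication genes. At unadjusted p under 0.05 the t-test gave 33 of 50 lower, against 1430 of all 8721 genes, and 1 lower checkpoint gene. The cause of these shifts was not tested.

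The labels number the cultures 1 and 2 in both groups but do not say that numbers were shared. The deviations of the numbered arrays correlated at 0.32 across genes. With the replicate block 48 of 50 replication genes and 2301 genes in all were lower, and 4 other DNA polymerases; DNA2, LIG1, POLD1 and RECQL4 were the replication genes added. Among the 50 genes, 36 (72%) were dimmer on spheroid replicate 1 than on spheroid replicate 2, against 49.98% of all genes.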
